A study of Homo sapiens with 6 samples.

Results

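The 10 genes described here encode the nuclear lamins and their membrane partners (LMNB1, LMNB2, LMNA, LBR and TMPO) and the high mobility group (HMG) proteins HMGB1, HMGB2, HMGB3, HMGA1 and HMGA2. They were chosen by name, as genes of the nuclear lamina and of HMG proteins, many of whose products are known to change in senescent cells, and they are 10 of the 20030 genes in the count table. The study sequenced mRNA of HepG2, an established human hepatoma line, after lentiviral delivery of a short hairpin RNA (shRNA). The sh-ctrl group (3 libraries) carried a control shRNA, and the sh-KIF11 group (3 libraries) carried an shRNA against KIF11, the kinesin motor that pushes spindle poles apart in mitosis. All 6 libraries came from the same line, were made from polyA RNA, and differed by label only in the shRNA. The labels do not say that the libraries of a group came from separate cultures, so p-values measure the spread between these libraries, which may be technical. They give a single sh-KIF11 group and no second hairpin, so effects of the hairpin itself and of KIF11 loss cannot be told apart. The RNA is from bulk cultures, in which fewer cells of a type and less RNA per cell cannot be told apart either.

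The nuclear lamina is a protein mesh under the inner nuclear membrane that gives the nucleus its shape and anchors silent chromatin. LMNB1 and LMNB2 encode the B-type lamins, LMNA encodes lamins A and C, LBR encodes the lamin B receptor of the inner membrane, and TMPO encodes the LAP2 proteins, which bind lamins and chromatin. HMGB proteins bend DNA and loosen its packing, and HMGA proteins bind AT-rich DNA through short hooks. As background, loss of LMNB1 mRNA and protein is a widely used mark of senescence, HMGB2, LBR and LAP2 also fall in many senescent cells, HMGB1 leaves the nucleus and is secreted, A-type lamins are kept, and HMGA proteins accumulate in the heterochromatin foci of some senescent cells.

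Depth was similar in the libraries, from 18167773 to 19583282 counts. Among the sh-ctrl libraries replicate 3 stood somewhat apart, with a chi-square per degree of freedom of 8.11 and 6.25 against the other two, beside 2.67 to 3.50 for the other pairs within groups. The targeted gene KIF11, on chromosome 10 of GRCh38 from 92593286 to 92655395, had 1976, 2088 and 2039 counts in sh-ctrl against 1448, 1478 and 1240 counts in sh-KIF11. Its normalised level fell to 0.595 of the control (log2 fold change -0.75, adjusted p = 4.22e-15, edgeR quasi-likelihood test, adjusted over 12369 tested genes by the Benjamini-Hochberg method). Levels below are read counts relative to library size (CPM) scaled with TMM, a method that sets the middle of the expressed genes equal in all libraries. The TMM factors were 0.922 to 0.926 in sh-ctrl and 1.08 to 1.09 in sh-KIF11, and several results below differ between TMM and scaling by library totals alone. Of 10 hepatocyte marker genes 9 were lower in sh-KIF11, beside 34.7% of all tested genes. The summed level of the 10 was 32270 to 33840 CPM in sh-ctrl and 14410 to 15550 CPM in sh-KIF11. The summed levels of 7 fibroblast, 5 endothelial and 5 leukocyte markers reached at most 3.93, 4.98 and 9.20 CPM in any library, and the defining genes DCN, THY1 and TEK had 0 counts in all 6. The part of these differences in the results below was not tested.

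In the fit across all genes, 8 of the 10 genes were lower in sh-KIF11, 0 were higher, and HMGB3 and HMGA2 did not pass an adjusted p of 0.05. Of all tested genes 34.7% were lower and 34.4% were higher by the same rule. The median log2 fold change of the 10 was -0.23, beside 0.00 for all tested genes. The 5 lamina genes all fell (median -0.48), and of the 5 HMG genes HMGB1, HMGB2 and HMGA1 fell (median -0.16). The lowest ratio to the control was 0.700, for HMGB2. Without sh-ctrl replicate 3 there were 8 lower and 1 higher, HMGA2, beside 34.3% lower and 35.2% higher among all genes tested in that fit. The TMM CPM of all sh-KIF11 libraries lay below those of all sh-ctrl libraries for the same 8 genes, as it did for 35.8% of all tested genes, and lay above for 0 of the 10, as it did for 35.4% of all tested genes.

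**Figure D1:**
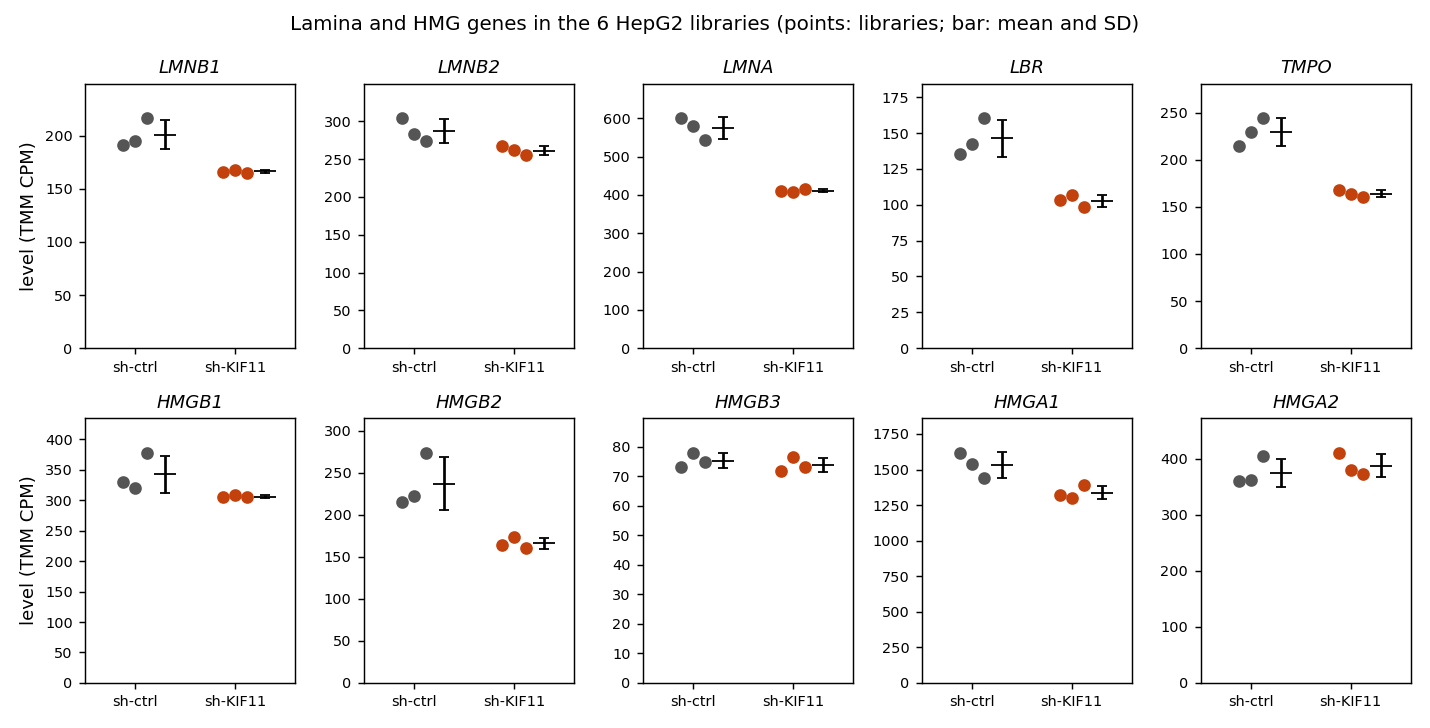
Level of each of the 10 genes in TMM-scaled CPM (y axis, from 0) in the 3 sh-ctrl (grey) and 3 sh-KIF11 (orange) libraries. Points are libraries and the black bar gives the mean and SD. The groups do not overlap for 8 genes, with means of 574.6 and 410.7 CPM for LMNA, and the groups overlap for HMGB3 and HMGA2.

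The genes differed widely in level. By FPKM, which is scaled to transcript length and so allows genes to be compared, HMGA1 was the highest in sh-ctrl at 356 ± 14.7 FPKM (SD, n = 3) and HMGB3 was the lowest at 15.7 ± 0.619 FPKM. Between them in sh-ctrl came HMGB2 at 83.4 FPKM, LMNA at 75.1, HMGA2 at 53.7, LMNB1 at 53.6, HMGB1 at 47.3, LMNB2 at 44.4, LBR at 41.2 and TMPO at 27.6 FPKM. In this order the libraries of HMGB2 and LMNA overlapped, as did those of HMGA2 and LMNB1, of HMGB1 and LMNB2, and of LMNB2 and LBR. In sh-KIF11 the order was the same except that HMGA2, at 61.7 ± 2.92 FPKM, stood above LMNA, at 61.5 ± 0.255 FPKM, and the libraries of these genes overlapped. Per length, the mRNA of HMGA1, an HMG gene that is high in embryonic and tumour cells, was thus above that of every lamin, and LMNA was above LMNB1 and LMNB2 in every library.

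The promoters of the genes were searched for words known from cell cycle genes. RefSeq windows (GRCh38.p14) were found for 8 of the 10 genes, all but HMGB2 and HMGA2, and the 250 bases before each start were read on both strands. A gene could have several windows. These 8 genes had 16 windows, and all 27305 genes had 35116. More windows give a gene more chances of a match, so the shares of genes below are not a like comparison. CCAAT, the word bound by NF-Y, was present in 6 of these 8 genes (LMNB1, LMNA, TMPO, HMGB1, HMGB3 and HMGA1) and in 37.0% of 27305 genes. TTTGAA, the word known as CHR, was present in LMNB2, HMGB1 and HMGB3 and in 16.1% of all genes, and any of the E2F words TTTGGCGC, TTTGCCGC, TTTCGCGC and TTTCCCGC was present only in LMNA among the 8, and in 3.40% of all genes. The 150 bases before a start are shown, 5′ to 3′ on the gene's strand, for the 2 genes with 3 CCAAT words and for 2 lamina genes with fewer. Capitals mark CCAAT, or ATTGG where the word is on the opposite strand.
HMGB1 (chr13:30465937-30466086, minus strand): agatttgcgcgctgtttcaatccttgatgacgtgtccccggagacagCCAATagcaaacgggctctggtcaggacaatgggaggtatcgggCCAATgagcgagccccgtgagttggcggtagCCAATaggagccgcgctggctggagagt
HMGB3 (chrX:150983185-150983334, plus strand): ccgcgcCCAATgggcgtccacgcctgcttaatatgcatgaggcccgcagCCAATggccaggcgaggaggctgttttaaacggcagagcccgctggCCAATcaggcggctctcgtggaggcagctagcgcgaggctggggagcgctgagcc
TMPO (chr12:98515423-98515572, plus strand): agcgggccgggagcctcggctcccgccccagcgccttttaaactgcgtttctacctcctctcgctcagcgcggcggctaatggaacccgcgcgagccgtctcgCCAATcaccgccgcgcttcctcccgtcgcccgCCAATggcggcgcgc
LMNB1 (chr5:126776986-126777135, plus strand): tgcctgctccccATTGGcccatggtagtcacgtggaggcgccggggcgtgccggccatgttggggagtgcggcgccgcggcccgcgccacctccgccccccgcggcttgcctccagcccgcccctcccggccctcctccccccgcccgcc
The words lay 44 and 31 bases apart in HMGB1 and 43 and 46 bases apart in HMGB3, and 2.93% of 35116 windows held 3 or more. HMGB1 had 3 windows and HMGB3, TMPO and LMNB1 had 2 each, of which a single one is shown per gene. The windows shown for HMGB1, HMGB3 and LMNB1 lie inside the gene spans given below. With 3 words in the window shown, HMGB1 and HMGB3 had log2 fold changes of -0.16 and -0.03. TMPO, with 2, had -0.48, and LMNB1, with 1, had -0.27. A relation between words and fold change was not tested. A match is a description of the sequence and no evidence of binding.

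LMNB1 fell modestly. The gene lies on chromosome 5 from 126776623 to 126837020 and had 3420, 3523 and 3658 counts in sh-ctrl against 3334, 3481 and 3255 counts in sh-KIF11. These raw counts overlapped between the groups. After TMM scaling the levels were 191.8, 195.2 and 216.7 CPM in sh-ctrl and 166.2, 168.2 and 165.0 CPM in sh-KIF11, without overlap. The level of LMNB1 in sh-KIF11 was 0.827 of the control (95% interval 0.770 to 0.889, log2 fold change -0.27, SE 0.0513, adjusted p = 1.06e-05, edgeR). The call was held in each of 6 fits that left out a library, with values from -0.30 to -0.22. It was lost when libraries were scaled by their totals alone (-0.04, adjusted p = 0.462, edgeR) and in limma on log2(FPKM + 1) (-0.09, adjusted p = 0.115).

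LMNB2, the other B-type lamin gene, lies on chromosome 19 from 2427638 to 2456996 and overlaps TIMM13 and MIR7108 on the same strand. It had 304.2, 283.8 and 273.5 CPM in sh-ctrl and 267.3, 261.5 and 254.9 CPM in sh-KIF11, so the groups were close but did not overlap. LMNB2 fell to 0.910 of the control (log2 fold change -0.14, adjusted p = 0.0140, edgeR). This call was lost without sh-ctrl replicate 1 (-0.09, adjusted p = 0.137, edgeR) and without sh-KIF11 replicate 3 (-0.12, adjusted p = 0.0721, edgeR). Library totals alone gave 0.09, in the opposite direction (adjusted p = 0.0854, edgeR).

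LMNA fell, and its log2 value was below those of both B-type genes on each scale used. It lies on chromosome 1 from 156082573 to 156140089 and had 10714, 10480 and 9154 counts in sh-ctrl against 8226, 8435 and 8180 counts in sh-KIF11, so that even the raw counts did not overlap. Its levels were 600.7, 580.7 and 542.4 CPM in sh-ctrl and 410.0, 407.5 and 414.8 CPM in sh-KIF11. LMNA was reduced to 0.715 of the control (95% interval 0.668 to 0.765, log2 fold change -0.48, adjusted p = 1.03e-11, edgeR). Total scaling gave -0.25 and limma on log2(FPKM + 1) gave -0.28, both past the threshold. The tables count lamin A and lamin C together.

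The membrane partners LBR and TMPO fell, with values near that of LMNA. LBR, on chromosome 1 from 225401502 to 225428925, had 135.7, 142.6 and 160.4 CPM in sh-ctrl and 103.2, 106.6 and 98.31 CPM in sh-KIF11, without overlap. LBR fell to 0.703 of the control (95% interval 0.650 to 0.760, log2 fold change -0.51, adjusted p = 1.28e-10, edgeR). TMPO, on chromosome 12 from 98515512 to 98550379, had 214.7, 229.5 and 244.2 CPM in sh-ctrl and 168.1, 163.4 and 160.6 CPM in sh-KIF11, and all knockdown libraries were below all controls. TMPO fell to 0.715 of the control (95% interval 0.666 to 0.768, log2 fold change -0.48, adjusted p = 5.12e-11, edgeR). TMPO overlaps the antisense gene TMPO-AS1, and whether the counting used strand is not given in the sources used here, so reads of these 2 genes cannot be told apart.

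Among the HMGB genes HMGB2, known to be high in proliferating cells, had the lowest log2 fold change. It lies on chromosome 4 from 173331695 to 173335125 and had 3845, 4010 and 4619 counts in sh-ctrl against 3299, 3588 and 3161 counts in sh-KIF11. Its levels were 215.6, 222.2 and 273.7 CPM in sh-ctrl and 164.4, 173.3 and 160.3 CPM in sh-KIF11, with sh-ctrl replicate 3 the highest. HMGB2 fell to 0.700 of the control (95% interval 0.644 to 0.762, log2 fold change -0.51, adjusted p = 6.06e-10, edgeR), and its log2 fold change was -0.40 without sh-ctrl replicate 3.

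HMGB1, whose protein also acts as an alarm signal outside the cell, fell by less. It lies on chromosome 13 from 30456704 to 30617597 and had 330.1, 320.4 and 377.9 CPM in sh-ctrl and 304.8, 308.2 and 305.0 CPM in sh-KIF11. The groups did not overlap, and sh-ctrl replicate 3 again stood highest. HMGB1 was at 0.893 of the control (log2 fold change -0.16, adjusted p = 0.00549, edgeR). Without sh-ctrl replicate 3 the value was -0.09 (adjusted p = 0.0366, edgeR), and library totals alone gave 0.07 (adjusted p = 0.242, edgeR). The annotation names 48 pseudogenes after HMGB1 and 29 after HMGB3, and reads shared with such copies make these 2 levels uncertain.

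HMGB3, the X-linked relative on chromosome X from 150980509 to 150990775, did not pass the test. It had 73.0, 77.91 and 74.95 CPM in sh-ctrl and 71.92, 76.52 and 73.06 CPM in sh-KIF11, and the groups overlapped. The ratio was 0.981 with a 95% interval of 0.906 to 1.06 (log2 fold change -0.03, adjusted p = 0.673, edgeR). On FPKM its values were 15.09, 16.33 and 15.66 in sh-ctrl against 16.87, 18.5 and 17.29 in sh-KIF11, all above the controls, and limma on log2(FPKM + 1) called it higher (0.15, adjusted p = 0.0253).

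HMGA1, the most abundant of the 10, lies on chromosome 6 from 34236873 to 34246231 and had 28836, 27835 and 24264 counts in sh-ctrl against 26574, 26862 and 27483 counts in sh-KIF11. These raw counts overlapped. Its TMM levels were 1617, 1542 and 1438 CPM in sh-ctrl and 1324, 1298 and 1393 CPM in sh-KIF11, without overlap. HMGA1 fell to 0.874 of the control (log2 fold change -0.20, adjusted p = 0.000636, edgeR), whereas library totals alone gave 0.04 (adjusted p = 0.525, edgeR). The annotation names 8 pseudogenes after HMGA1.

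HMGA2, an oncofetal gene that most adult tissues silence, was not called lower in any fit. It lies on chromosome 12 from 65824131 to 65966295, overlaps RPSAP52 on the opposite strand, and had 6430, 6529 and 6829 counts in sh-ctrl against 8244, 7857 and 7345 counts in sh-KIF11. All raw counts of sh-KIF11 were above those of sh-ctrl. After TMM scaling the levels were 360.5, 361.8 and 404.6 CPM in sh-ctrl and 410.9, 379.6 and 372.4 CPM in sh-KIF11, and the groups overlapped. The ratio was 1.03 with a 95% interval of 0.960 to 1.11 (log2 fold change 0.05, adjusted p = 0.440, edgeR). HMGA2 was called higher under upper-quartile scaling (0.12, adjusted p = 0.0302, edgeR), under library totals alone (0.28, adjusted p = 6.22e-06, edgeR), in limma on log2(FPKM + 1) (0.20, adjusted p = 0.00596) and without sh-ctrl replicate 3 (0.10, adjusted p = 0.0287, edgeR).

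The choice of scaling thus set the count of lowered genes. With library totals alone 4 of the 10 were lower (LMNA, LBR, TMPO and HMGB2) and 2 were higher (HMGB3 and HMGA2), beside 19.2% lower and 53.5% higher among all tested genes. Upper-quartile scaling gave 6 lower and 1 higher, beside 28.8% lower and 40.5% higher, with LMNB2 (-0.06) and HMGB1 (-0.08) no longer past the threshold. The fit with limma on log2(FPKM + 1) gave 4 lower and 2 higher, beside 21.0% lower and 45.2% higher. The same 4 genes were lower in every fit, and they had lower mean values after conversion of FPKM to TPM, which has the same sum in each library. On TPM the log2 ratio of group means was -0.12 for LMNA, -0.13 for LBR, -0.19 for TMPO and -0.18 for HMGB2, and only LMNA and TMPO had all sh-KIF11 libraries below all sh-ctrl libraries, as 13.1% of tested genes did, while 5 of the 10 had them all above, as 63.2% of tested genes did. LMNB1 was at 0.07, LMNB2 at 0.26, HMGB1 at 0.19, HMGB3 at 0.33, HMGA1 at 0.18 and HMGA2 at 0.37 on that scale. The middle gene of the transcriptome moved with the scale, by 0.00 with TMM, 0.08 with upper quartiles, 0.24 with totals and 0.35 on TPM. Relative to that middle gene, 9 of the 10 were below it under each of 6 scalings, with LMNB1 at -0.28 to -0.27 and HMGB3 at -0.03 to -0.02. Only HMGA2 was above it, at 0.03 to 0.04. Scaling of counts shifts all genes by nearly the same amount, and so does the conversion of FPKM to TPM. These relative values could thus hardly vary among the count scalings or between FPKM and TPM. By definition as many tested genes lie below the middle gene as above it.

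**Figure D2:**
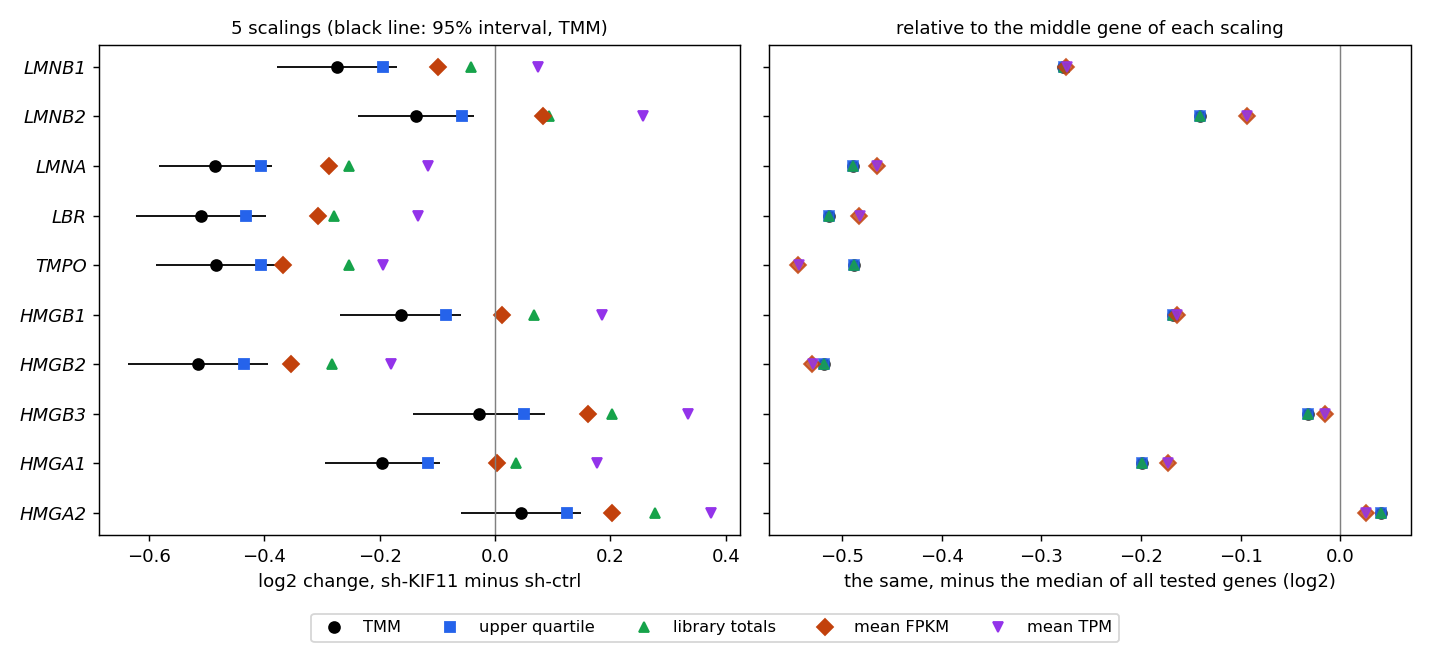
Left, log2 change of each gene (sh-KIF11 minus sh-ctrl) under 5 scalings, with the 95% interval of the TMM fit as a black line, where FPKM and TPM values are log2 ratios of group means. Right, the same values minus the median of all tested genes under the same scaling. LMNA, LBR, TMPO and HMGB2 lie left of 0 under each scaling on the left, LMNB1 runs from -0.27 to 0.07, and on the right HMGA2 alone lies above 0.

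Ratios of 2 genes in the same library do not depend on the factors that scale libraries. The LMNB2/LMNA ratio of counts was 0.506, 0.489 and 0.504 in sh-ctrl against 0.652, 0.642 and 0.615 in sh-KIF11, higher in all 3 knockdown libraries. The HMGB2/HMGB1 ratio was 0.653, 0.693 and 0.724 in sh-ctrl against 0.539, 0.562 and 0.525 in sh-KIF11, lower in all 3. Both differences were larger than the spread between libraries, at 0.35 and -0.35 on the log2 scale, and reached the smallest p that 3 against 3 libraries allow (exact permutation test, two-sided, p = 0.1, adjusted p = 0.3 over 6 ratios). The LMNB1/LMNA ratio was 0.319, 0.336 and 0.400 in sh-ctrl against 0.405, 0.413 and 0.398 in sh-KIF11, and the groups overlapped through sh-ctrl replicate 3 (difference 0.21, exact permutation p = 0.2). In counts, LMNB1/LMNB2, HMGB3/HMGB1 and HMGA2/HMGA1 also overlapped between groups, with differences of -0.14, 0.13 and 0.24 (exact permutation p = 0.3, 0.3 and 0.2). Without sh-ctrl replicate 3 these became -0.05, 0.06 and 0.34. The deposited FPKM can give other ratios than the counts. On FPKM, LMNB1/LMNB2 was 1.106, 1.186 and 1.341 in sh-ctrl against 1.038, 1.073 and 1.085 in sh-KIF11, lower in all 3 knockdown libraries (difference -0.18, exact permutation p = 0.1, the smallest possible, adjusted p = 0.2 over the 6 FPKM ratios). Of the other 5 ratios, LMNB2/LMNA and HMGB2/HMGB1 again did not overlap on FPKM and the other 3 did.

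**Figure D3:**
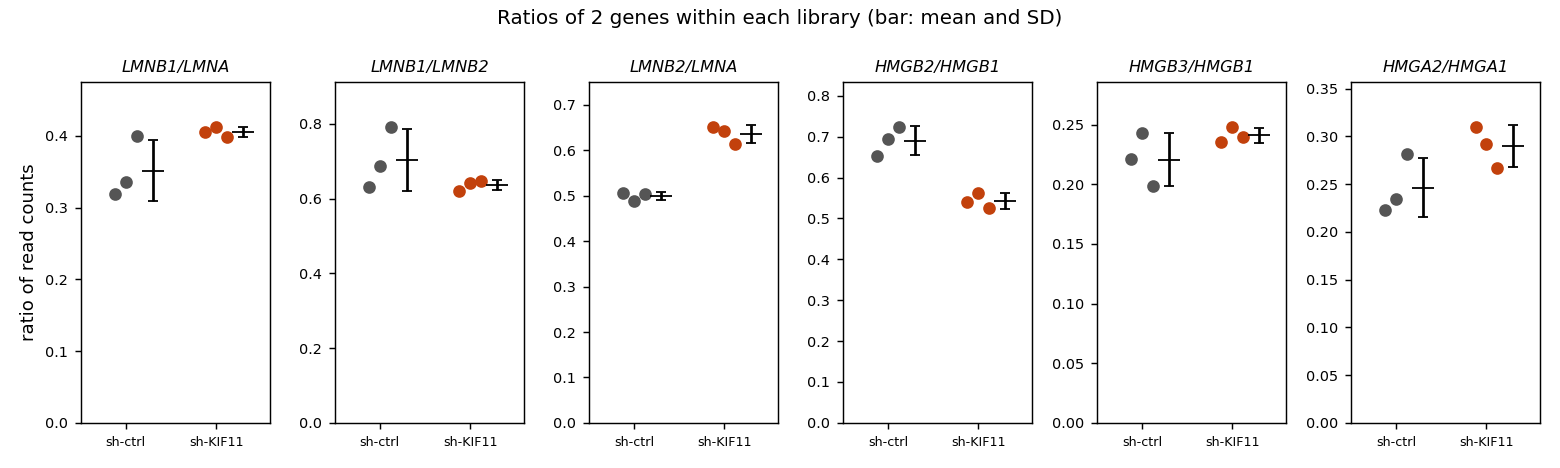
Ratio of the read counts of 2 genes within each library (y axis, from 0) for sh-ctrl (grey) and sh-KIF11 (orange), with the mean and SD as a black bar. LMNB2/LMNA is higher and HMGB2/HMGB1 is lower in all 3 sh-KIF11 libraries, and the other 4 ratios overlap between the groups.

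Partners of the lamina in the nuclear envelope changed in both directions. Of 21 genes of the inner membrane, of the LINC complex that ties the nucleus to the cytoskeleton, and of the lamina, 11 were lower and 3 were higher (median -0.20, beside 0.00 for all tested genes, of which 34.7% were lower and 34.4% higher). Without sh-ctrl replicate 3 there were 5 higher, beside 35.2% of all genes tested in that fit. SUN2, an inner membrane protein of the LINC complex, had 4518, 4545 and 3818 counts in sh-ctrl against 1674, 1632 and 1508 in sh-KIF11, the widest fall of this list (log2 fold change -1.62, adjusted p = 4.82e-27, edgeR). SYNE3, which encodes a nesprin of the outer membrane, fell by 1.23 on the log2 scale. SYNE1, which encodes a giant nesprin, rose by 1.01, from 28.4 to 57.1 CPM, and IFFO1, which encodes a lamin-binding filament protein, rose by 0.46. With library totals alone the list had 6 lower and 8 higher, beside 19.2% lower and 53.5% higher among all tested genes, and the calls of SUN2, SYNE3, SYNE1 and IFFO1 held.

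Of 5 enzymes that process the farnesylated tail of lamins, ICMT, ZMPSTE24 and FNTB were lower and FNTA was higher. By the same rule 34.7% of all tested genes were lower and 34.4% were higher. ICMT, which methylates the tail, went from 243.2 to 158.1 CPM (log2 fold change -0.62, adjusted p = 2.21e-14, edgeR). ZMPSTE24, the protease that matures lamin A, fell by 0.36, and FNTA, the shared subunit of the farnesyl and geranylgeranyl transferases, rose by 0.21. FNTB had 11 to 49 counts in the libraries and overlaps a readthrough gene, so its value of -0.91 is uncertain. FNTB did not pass without sh-ctrl replicate 2 (-0.69) or sh-KIF11 replicate 3 (-0.60), and FNTA did not pass without sh-ctrl replicate 2 (0.17). Without sh-ctrl replicate 2, 0 of the 5 were higher, beside 32.4% of all tested genes.

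Of 30 nuclear pore genes 15 were lower and 5 were higher (median -0.13), beside 34.7% lower and 34.4% higher among all tested genes. SEC13, a coat protein of the pore and of transport vesicles, fell by 0.68 on the log2 scale, and NUP85, a scaffold subunit, fell by 0.55. RANBP2, of the cytoplasmic filaments, rose by 0.75, from 225.2 to 379.0 CPM, and TPR, of the nuclear basket, rose by 0.66. Library totals alone, under which 19.2% of all tested genes were lower and 53.5% higher, gave 4 lower and 13 higher.

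Among 15 other HMG genes 14 were tested, and 5 were higher and 5 lower (median 0.02), shares near the 34.4% and 34.7% of all tested genes. HMGN5, which encodes a nucleosome-binding protein, rose by 0.96 with only 29 to 40 counts in sh-ctrl against 72 to 85 in sh-KIF11, and BBX, which encodes an HMG box factor, rose by 0.70. SSRP1, a subunit of the histone chaperone FACT, fell by 0.53, and HMG20B fell by 0.28. HMGB4, a gene known from testis, had 0 counts in all libraries, which allows up to 0.145 to 0.178 CPM by a floor of 3 counts that covers counting error only. Totals alone gave 10 higher and 1 lower, beside 53.5% and 19.2% of all tested genes. Without sh-ctrl replicate 1, 3 were lower, beside 32.4% of all genes tested in that fit.

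Of 11 heterochromatin genes 5 were lower and 2 were higher (median -0.12), beside 34.7% and 34.4% of all tested genes. The methyltransferase genes SUV39H1 and EHMT2, which act on histone H3, fell by 0.87 and 0.22, the corepressor gene TRIM28 by 0.50, the macroH2A gene H2AFY by 0.25 and the HP1 gene CBX1 by 0.19. The second macroH2A gene, H2AFY2, rose by 0.64 and the HP1 gene CBX5 rose by 0.62. Library totals alone left SUV39H1 and TRIM28 lower and gave 5 higher, near the 19.2% lower and 53.5% higher of all tested genes.

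The LIN28 and IGF2BP genes encode RNA-binding proteins that are known to share the oncofetal pattern of HMGA2. LIN28B, which blocks maturation of the let-7 microRNAs that target HMGA2, had 1310, 1425 and 1364 counts in sh-ctrl against 1052, 1174 and 1052 in sh-KIF11, without overlap (log2 fold change -0.52, adjusted p = 4.80e-10, edgeR). IGF2BP2 fell by 0.12 and IGF2BP3 rose by 0.15, and both calls were near the threshold, at adjusted p = 0.0360 and 0.0137 (edgeR). Library totals alone turned IGF2BP2 higher (0.11, adjusted p = 0.0413, edgeR). IGF2BP3 did not pass without sh-ctrl replicate 1 (0.10) or sh-KIF11 replicate 1 (0.14), and IGF2BP2 did not pass without sh-ctrl replicate 2 (-0.08), sh-KIF11 replicate 2 (-0.11) or sh-KIF11 replicate 3 (-0.11). Of the 5 receptors of extracellular HMGB1 3 were tested, and only TLR4 was called. Of all tested genes 34.4% were higher and 34.7% were lower. TLR4 had 0, 0 and 2 counts in sh-ctrl against 35, 63 and 43 in sh-KIF11, so it passed the filter on low counts only through the group where it was high and had to differ. A filter of at least 10 counts in every library removes TLR4 from the test. The 0 receptors called higher in that fit, beside 34.8% of all tested genes, thus say nothing about TLR4.

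**Figure D4:**
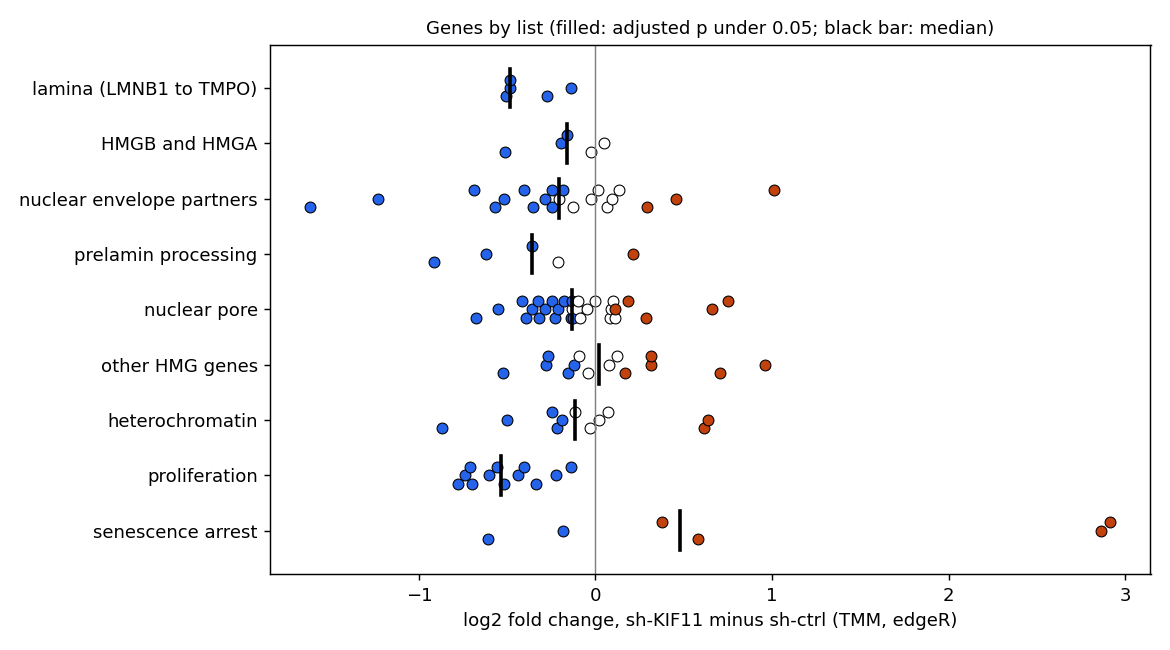
Log2 fold change (x axis, sh-KIF11 minus sh-ctrl, TMM) of the tested genes reported here in the lists named on the y axis. KIF11, the cell type markers, the LIN28 and IGF2BP genes and the receptors of HMGB1 are not shown. Filled points passed an adjusted p of 0.05 (blue lower, red higher), open points did not, and black bars are medians. The lamina genes and the proliferation genes lie left of 0, with medians of -0.48 and -0.54, while the other lists spread to both sides.

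Proliferation and arrest genes are given beside these results because several of the 10 genes are known to be higher in cycling cells. All 12 proliferation markers were lower, beside 34.7% of all tested genes. Their median was -0.54, beside 0.00 for all tested genes. The summed level of the 12 was 3689 to 3809 CPM in sh-ctrl and 2679 to 2821 CPM in sh-KIF11. Their log2 values ran from -0.78 for PLK1 to -0.14 for PCNA, and MKI67 was at -0.44, TOP2A at -0.22, CCNA2 at -0.52, CCNB1 at -0.70, CDK1 at -0.41, BUB1 at -0.34, AURKA at -0.56, E2F1 at -0.71, MCM2 at -0.60 and RRM2 at -0.74. Library totals alone left 9 of the 12 lower, beside 19.2% of all tested genes, with BUB1 at -0.11 and TOP2A and PCNA at 0.01 and 0.09. PCNA also did not pass without sh-ctrl replicate 3 (-0.08) or sh-KIF11 replicate 3 (-0.12). The values of LMNA, LBR, TMPO and HMGB2, at -0.51 to -0.48, lay within the range of this list. So did LMNB1 at -0.27, HMGA1 at -0.20 and HMGB1 at -0.16. LMNB2, HMGB3 and HMGA2 lay above the range, at -0.137, -0.028 and 0.045, beside -0.141 for PCNA. The part of the proliferation change in the lamina and HMG values was not tested.

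Of 6 senescence arrest genes reported here 4 were higher and 2 were lower, beside 34.4% higher and 34.7% lower among all tested genes. CDKN2A, which encodes p16 and p14ARF, had 26, 20 and 14 counts in sh-ctrl against 189, 178 and 155 in sh-KIF11 (log2 fold change 2.92, adjusted p = 1.37e-16, edgeR), and CDKN2B, its neighbour, rose by 2.87. CDKN2B overlaps an antisense gene, CDKN2B-AS1, whose reads may have been counted with it. CDKN1A, which encodes p21, rose by 0.58, and RB1 rose by 0.38. GLB1, whose product is the lysosomal galactosidase measured in senescence staining, fell by 0.61 and CDKN1B fell by 0.18. The call of CDKN1B was lost with library totals alone (0.05, adjusted p = 0.500, edgeR) and without sh-ctrl replicate 3 (-0.12), sh-KIF11 replicate 2 (-0.16) or sh-KIF11 replicate 3 (-0.15). Over the same libraries, LMNB1 was at 0.827 of the control.

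To list genes with similar values, the 122 tested genes of the lists were ranked by the root mean square difference of log2 CPM over the 6 libraries. The values were centred on the sh-ctrl mean, so the measure largely follows the fold change. Similar fold changes of the nearest genes are thus built into the ranking and are no separate result. Nearest to LMNB1 were NUP43 (0.0397), HMGN2 (0.0410) and NUP37 (0.0420), with log2 fold changes of -0.32, -0.27 and -0.25. Nearest to HMGA2 were SEH1L (0.0503), NUP58 (0.0616) and LEMD3 (0.0644), none of which passed the test between groups.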

How the data were processed

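Poly(A) RNA of HepG2 cells was sequenced as stranded libraries, 3 sh-ctrl and 3 sh-KIF11. The authors deposited raw counts per gene and FPKM values for the same genes, already divided by transcript length and library size. The submitters' processing notes list bcl2fastq 1.8.4, Trimmomatic, HISAT2 2.1.0, Cufflinks 2.2.1, HTSeq 0.9.1, DESeq and GRCh38. The tables name the knockdown columns only shRNA, and these were read as sh-KIF11, the single knockdown in the labels.

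Counts were fitted with edgeR 4.0.16 in R 4.3.3 (TMM, filterByExpr, quasi-likelihood test with the group as the only term, Benjamini-Hochberg adjustment, threshold 0.05). This kept 12369 genes and left out 7661. The biological coefficient of variation was 4.87%. Counts of libraries of one group differed by chi-square per degree of freedom of 2.67 to 8.11, and those of different groups by 84.0 to 102.0. Each library was counted as a replicate, although these values cannot tell separate cultures from separate preparations of the same culture. Alternatives were RLE and upper-quartile factors, library totals alone, other low-count filters, the replicate number as a term, DESeq2 1.42.0, limma 3.58.1 on log2(FPKM + 1) and log2(FPKM + 0.1), and leaving out each library. Ratios within libraries were tested by exact permutation. The scripts were tested on simulated data.

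The 10 genes and all lists were chosen with earlier results of these data known. Named genes are the 10, KIF11, all passing genes of lists of up to 12 genes and the 2 highest and 2 lowest passing genes of longer lists. The result of 1 listed gene is not reported here. Likeness was ranked for LMNB1 and HMGA2 only. Gene positions and overlaps come from GENCODE release 29 (GRCh38), and promoter windows come from RefSeq (GRCh38.p14).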

Additional observations from a re-analysis of the deposited data

How the results depend on the processing

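Of all tested genes 4254 were higher and 4294 lower with TMM. Library totals alone gave 6621 higher and 2373 lower, limma on log2(FPKM + 1) gave 2625 lower and limma on log2(FPKM + 0.1) gave 2621 lower. Of the 10 lamin and HMG genes 0 were higher and 8 lower with TMM, beside 34.4% and 34.7% of all tested genes. Upper-quartile scaling gave 1 higher, beside 40.5%. Library totals alone and both limma fits gave 2 higher and 4 lower. Of all genes 53.5% were higher and 19.2% lower with totals, and 45.2% and 21.0% with each limma fit. Leaving out a library gave 0 to 1 higher, beside 31.7% to 35.2% of all tested genes, with HMGA2 the gene called without sh-ctrl replicate 3.

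Directions turned as follows. With library totals alone the log2 fold changes were 0.0941 for LMNB2, 0.0674 for HMGB1, 0.203 for HMGB3 and 0.0358 for HMGA1. In limma on log2(FPKM + 1) they were 0.0825, 0.0146, 0.152 and 0.0045, and on log2(FPKM + 0.1) 0.0842, 0.0149, 0.160 and 0.0045, for the same genes. HMGB3 was at 0.0507 with upper quartiles. With a library left out HMGB3 ran from -0.0556 to 0.0020 (without sh-ctrl replicate 2) and HMGA2 from -0.00014 (without sh-KIF11 replicate 1) to 0.0996. LMNA, LBR, TMPO and HMGB2 kept their direction and their call in all 15 alternative fits.

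The replicate number as a block gave 8 of the 10 lower and 0 higher, beside 34.9% and 34.7% of all tested genes. It put LMNB1 at -0.27 (edgeR, adjusted p = 1.67e-07) and changed no call of the 10. Deviations of libraries with the same number correlated at 0.03, -0.02 and -0.0025, and 2 of 6 libraries correlated best with their own number, so the numbers did not pair the libraries.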
